A study of Bos taurus with 8 samples.

Results

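The forkhead box genes of the bovine genome were described in 8 methylome libraries of dermal fibroblasts. Members were the genes on chromosomes 1 to 29 whose symbol is FOX, a letter from A to S and a number, with at most 1 further letter. They were 34 genes, of the 24038 named genes on these chromosomes, and they named 613 of the 837275 autosomal windows of 3Kb. The window at the start of a gene, by its strand, is called here its first window, and the remaining windows that carry the gene's name are its other windows. There were 34 first windows and 579 other windows. FOXB1, FOXB2, FOXC2, FOXE1, FOXL2 and FOXS1 named only 1 window each, so 28 genes had both kinds. The first window held coding exon 1 in 27 of the 34 genes. In FOXE3, FOXJ2, FOXN3, FOXN4 and FOXP1 it held no coding exon, and in FOXK1 and FOXK2 it held coding exons 2 and 5, so for FOXK1 and FOXK2 the files do not show it to lie at the start of the transcript.

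The cells were cultures grown from skin of the shoulder of Holstein heifers (a dairy breed, 4 animals) and Angus heifers (a beef breed, 4 animals) of the same age. All cultures were at passage 5, were not treated, and gave 1 library per animal. The study asked whether fibroblasts of the breeds differ in methylation. Expanded fibroblasts in culture stand for a single cell type of the animal and not for skin. In MIRA-Seq, fragments of sonicated DNA that carry methylated CpG are pulled down with methyl-binding proteins and sequenced, and the level of a window is given as CPM, the reads of the window scaled to 1e6 reads over all windows of the library. A pull-down of many cells cannot tell fewer methylated cells from fewer methylated CpG per cell. CpG density also enters the count and was not measured here, so levels of different windows are read count levels and not shares of methylated CpG.

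Forkhead genes encode transcription factors that share a winged-helix DNA-binding domain. FOXO factors act below insulin and growth factor signalling, where AKT keeps them out of the nucleus, FOXM1 drives genes of the G2 and M phases of the cell cycle, and FOXK factors repress autophagy and take part in glucose use. Many others pattern the embryo: FOXA factors open chromatin in endoderm, FOXF1 and FOXL1 act in mesenchyme next to epithelium under hedgehog signals, FOXC2 in lymphatic vessels, and FOXE1 and FOXN1 in thyroid, hair follicle and thymus. Methylation of CpG near a gene's start is typically low in active genes, and methylation inside the body of an active gene is typically high.

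The libraries held between 18691111 and 35525554 reads over all windows, and 3 reads in a window, the count taken as a floor, came to 0.0844 to 0.161 CPM. Forkhead windows held a median of 8 to 25 reads per library, against 4 to 12 over all autosomal windows, and took 478 to 884 reads of every 1e6, where the windows make up 679 of every 1e6 windows. Holstein 1 and Angus 3 stood apart, with 69.0 and 72.4% of their reads in the top 1% of windows against 46.8 to 57.4% in the other 6. CPM in forkhead windows was also lowest in these libraries, and the part of the concentration in this was not tested. As a check of the label, 16 of 16 fibroblast marker genes had a first window, with a median of 0.257 CPM, and 15 of them were under 0.5 CPM. Over all named autosomal genes the median was 0.404 CPM and 58.2% were under 0.5 CPM. Of the keratinocyte genes 5 of 8 were under 0.5 CPM, with a median of 0.394 CPM, so the check does not set the lists clearly apart. The medians of the immune, endothelial, muscle and melanocyte lists lay between 0.544 and 0.952 CPM. These are methylation levels and give no expression.

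The mean level of forkhead first windows was below that of the other windows, which exist in only 28 of the 34 genes. The mean over the 34 first windows was 0.707, 1.03, 1.03 and 1.08 CPM in Holstein 1 to 4 and 0.906, 1.03, 0.694 and 1.10 CPM in Angus 1 to 4. This gave 0.948 ± 0.164 CPM (SD, n = 8 libraries), beside 0.853 ± 0.149 CPM over all named autosomal genes. Holstein 1 and Angus 3 were the lowest of their breeds, and the breeds overlapped. The mean over the other windows of 28 genes was 1.29 ± 0.249 CPM (SD, n = 8 libraries), beside 1.13 ± 0.186 CPM over all such genes. With library sizes scaled by TMM, which brings Holstein 1 and Angus 3 closer to the rest, these means were 0.936 ± 0.0478 and 1.26 ± 0.0350 CPM. In first windows Holstein 1 was then still the lowest library (0.865 CPM), and Angus 3 became the highest (1.03 CPM). In other windows both lay inside the range of the rest. Without both libraries the means of first and other windows were 1.03 ± 0.0682 and 1.40 ± 0.137 CPM (SD, n = 6 libraries).

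Forkhead genes lay near the middle of all genes in first windows. Their median was 0.544 CPM, against 0.404 CPM over all named autosomal genes. A first window under 0.5 CPM was found for 16 of 34 members (47.1%), and for 58.2% of all genes. A first window of at least 1 CPM was found for 10 of 34 members (29.4%), and for 20.6% of all genes. Among other families of developmental transcription factors, the median first window was 0.761 CPM for 32 HOX genes, 0.424 CPM for 12 SOX genes and 0.396 CPM for 9 PAX genes. In other windows the medians were 0.958 CPM for forkhead genes, 0.854 for HOX, 0.346 for SOX, 0.711 for PAX and 0.575 CPM for all genes. These sets are given side by side as a description, and their difference was not tested.

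**Figure D1:**
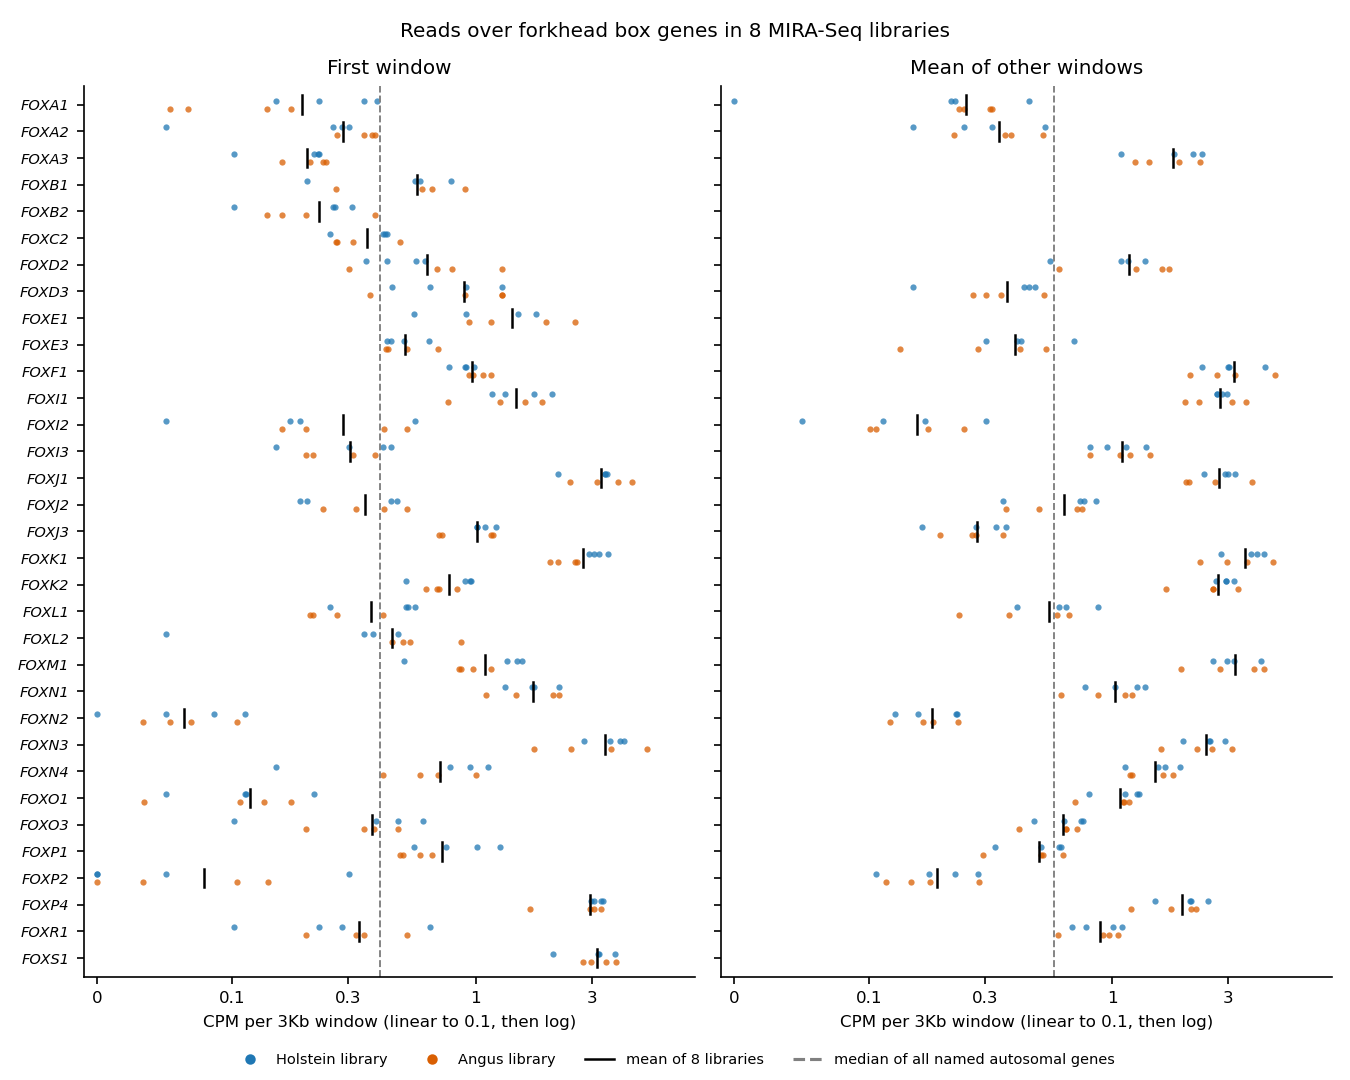
Each point is the CPM of 1 library in the first window (left) or the mean CPM of the other windows (right) of a forkhead gene, with black bars for the mean of 8 libraries and a dashed line for the median of all named autosomal genes. First windows run from 0.0639 CPM in FOXN2 to 3.41 CPM in FOXN3, and the breeds overlap in each panel for all genes shown but the FOXK1 first window.

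The members differed from each other far more than the breeds did. The highest first windows belonged to FOXN3 (chr10:102299601-102302600, − strand, no coding exon), FOXJ1, FOXS1, FOXP4 and FOXK1. FOXN3, a repressor linked to the DNA damage checkpoint, had 2.78, 4.07, 3.56 and 3.91 CPM in Holstein 1 to 4 and 2.48, 3.62, 1.75 and 5.08 CPM in Angus 1 to 4. FOXJ1, the master regulator of motile cilia, had 3.29 ± 0.713 CPM (SD, n = 8) in its first window, which holds coding exon 1. FOXS1, whose only window is chr13:61923797-61926796, had 3.14 ± 0.558 CPM (SD, n = 8). FOXP4, a transcriptional repressor found in lung and gut epithelium, had 2.96 ± 0.535 CPM and FOXK1 2.76 ± 0.506 CPM (SD, n = 8). These first windows lay above those of 94.9 to 96.6% of named autosomal genes in mean CPM.

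The lowest first windows belonged to FOXN2, FOXP2 and FOXO1, each with coding exon 1. FOXN2 held 1, 2, 0 and 4 reads across Holstein 1 to 4, with 3, 2, 1 and 1 across Angus 1 to 4, a mean of 0.0639 CPM, with 6 of 8 libraries under the floor of 3 reads. FOXP2, a factor of speech and motor circuits, held 1, 7, 0 and 0 reads across Holstein 1 to 4, with 4, 3, 1 and 0 across Angus 1 to 4. In FOXP2, 5 libraries were under the floor, and its order against FOXN2 cannot be told at this depth. FOXO1 (chr12:21914422-21917421) held 1 to 5 reads per library, or 0.118 ± 0.0594 CPM (SD, n = 8), with 3 libraries under the floor.

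In the other windows the order changed. The highest means were those of FOXK1 (3.5 ± 0.774 CPM), FOXM1 (3.19 ± 0.797), FOXF1 (3.15 ± 0.888), FOXI1 (2.76 ± 0.481) and FOXJ1 (2.74 ± 0.589 CPM, all SD over n = 8). The first 3 of these differed by less than their spread between libraries. The lowest were those of FOXI2 (0.158 ± 0.0830 CPM), FOXN2 (0.181 ± 0.0447) and FOXP2 (0.189 ± 0.0681 CPM), which also differed by less than their spread. FOXN2 and FOXP2 were thus low in both kinds of window, and FOXJ1 and FOXK1 high in both.

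The first window was compared with the mean of the other windows within each library by an exact two-sided sign-flip permutation test per gene, with Benjamini-Hochberg adjustment over 19867 genes. At adjusted p < 0.05 the first window was lower in 16 of 28 forkhead genes, against 50.5% of all genes, and higher in 7 of 28, against 20.7%. These counts lie close to the shares over all genes. Of the 7 genes that were higher, FOXD3, FOXJ3, FOXN1, FOXN3 and FOXP4 were so in 8 of 8 libraries, and FOXJ1 and FOXP1 in 7 of 8. The test did not separate the windows of FOXA1, FOXA2, FOXE3, FOXI2 and FOXK1. A difference in all 8 libraries has an exact p of 0.00781, the smallest these libraries allow, and an adjusted p of 0.0134.

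FOXO1 and FOXA3 had the widest contrast with a low first window, relative to their other windows. In FOXO1 the other windows had 0.799, 1.26, 1.12 and 1.29 CPM in Holstein 1 to 4 and 1.12, 1.17, 0.704 and 1.11 CPM in Angus 1 to 4, so that the first window was 0.110 times their mean of 1.07 CPM. The other windows of FOXO1 had a median of 0.834 CPM, and the highest of them was window 31 of 32, with coding exon 3, at 3.33 ± 0.420 CPM (SD, n = 8). FOXA3, a liver and gut factor of 3 windows, had 0.202 ± 0.0480 CPM in its first window and 3.21 ± 0.845 CPM (SD, n = 8) in its last, with coding exon 2. The ratio of first to other windows was 0.114.

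In the opposite direction FOXP4 had 2.96 CPM in its first and 1.93 ± 0.421 CPM in its other windows. The difference of FOXP4 was 1.03 CPM, in 8 of 8 libraries. FOXN3 had 3.41 against 2.42 ± 0.491 CPM and FOXN1, the factor of thymus epithelium and hair, 1.72 ± 0.412 against 1.03 ± 0.259 CPM (SD, n = 8). FOXJ3 had 1.01 ± 0.196 CPM in its first window and 0.278 ± 0.0719 CPM in its 34 other windows, a ratio of 3.64 and the highest among the members. FOXD3, a neural crest factor, had 0.893 ± 0.376 against 0.370 ± 0.125 CPM (SD, n = 8). In FOXN3 and FOXP1 the first window holds no coding exon, so it lies ahead of the coding part.

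Within subfamilies the members stood apart. FOXO1 was above FOXO3, a stress-responsive relative, in other windows (1.07 against 0.628 ± 0.124 CPM, 8 of 8 libraries), while the first window of FOXO3 (0.374 ± 0.161 CPM, SD, n = 8) was above that of FOXO1 in 8 of 8 libraries. The FOXO3 reads peaked in window 37 of 38, with coding exon 2, at 5.17 ± 0.841 CPM (SD, n = 8). FOXM1 had 1.09 ± 0.355 CPM in its first window and 1.99, 4.41 and 3.19 CPM in windows 2 to 4, all of which hold coding exons.

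The FOXP genes, repressors that act as dimers, ran from FOXP4 over FOXP1 to FOXP2 in other windows, with 1.93, 0.50 ± 0.126 and 0.189 CPM and the same order in 8 of 8 libraries. The FOXN genes ran from FOXN3 over FOXN4 and FOXN1 to FOXN2, with 2.42, 1.5, 1.03 and 0.181 CPM, again in 8 of 8 libraries. Of the FOXI genes, which act in ionocytes and the inner ear, FOXI1 (2.76 CPM) lay above FOXI3 (1.10 ± 0.235 CPM) and FOXI3 above FOXI2 (0.158 CPM) in 8 of 8 libraries. FOXA2 (0.341 ± 0.135 CPM) lay above FOXA1 (0.251 ± 0.128 CPM) in 7 of 8 libraries, a difference smaller than their spread.

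Other members had low to middle levels. Of the genes of the early nervous system, FOXB1 had 0.574 ± 0.239 CPM and FOXB2 0.228 ± 0.0946 CPM in their only windows (SD, n = 8). FOXE3, a factor of the lens, had 0.515 ± 0.103 and 0.398 ± 0.169 CPM, and FOXN4, which acts in the retina and spinal cord, 0.715 ± 0.324 and 1.5 ± 0.290 CPM in first and other windows (SD, n = 8). FOXL2 had 0.452 ± 0.227 CPM in its only window, and FOXR1 0.332 ± 0.178 and 0.886 ± 0.182 CPM. FOXJ2 had 0.352 ± 0.132 and 0.631 ± 0.196 CPM, below FOXJ1 in both kinds of window (SD, n = 8). In 12 of the 34 genes at least 1 library had fewer than 3 reads in the first window, so low first windows are given with little precision.

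Around the gene starts the family showed no dip at the first window. The median over the 34 genes was 0.412 CPM in the window before the first, 0.544 CPM in the first and 0.560 CPM in the next, against 0.367, 0.404 and 0.407 CPM over all named autosomal genes. These windows were taken by distance from the start, whether or not they carry the gene's name, and no test was made.

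Of the genes with known roles in skin and connective tissue, those listed here had first windows from 0.358 to 3.14 CPM. FOXE1, which acts in the hair follicle and whose only window is chr8:63508487-63511486, had 1.42 ± 0.659 CPM (SD, n = 8), FOXS1 3.14 CPM, FOXN1 1.72 CPM and FOXF1 0.964 ± 0.113 CPM. FOXC2 had 0.358 ± 0.0917 CPM, FOXL1 0.372 ± 0.152 CPM and FOXD2 0.632 ± 0.314 CPM (SD, n = 8). FOXC1, FOXD1, FOXF2 and FOXQ1, known for roles in skin or mesenchyme, named no window in this table and were not analysed here. FOXD4, FOXH1, FOXL3 and FOXO6 were likewise autosomal forkhead symbols of RefSeq that named no window.

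Along the long genes the reads were uneven, and the 3 longest, FOXN3 with 137 windows, FOXP1 with 132 and FOXP2 with 103, held 372 of the 613 windows. FOXN3 was the highest of them, with other windows from 0.141 to 10.3 CPM and a median of 2.09 CPM. FOXP1 had a median of 0.448 CPM and a highest window of 1.95 CPM, and FOXP2 a median of 0.149 CPM and a highest window of 0.836 CPM. The highest FOXN3 window, window 78 (chr10:102068601-102071600), had no coding exon. Its reads gave 10.3, 7.83, 11 and 9.99 CPM in Holstein 1 to 4 and 8.2, 10.8, 13.3 and 10.8 CPM in Angus 1 to 4. Angus 3 was the highest library in it, although this library was the lowest in the family mean.

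**Figure D2:**
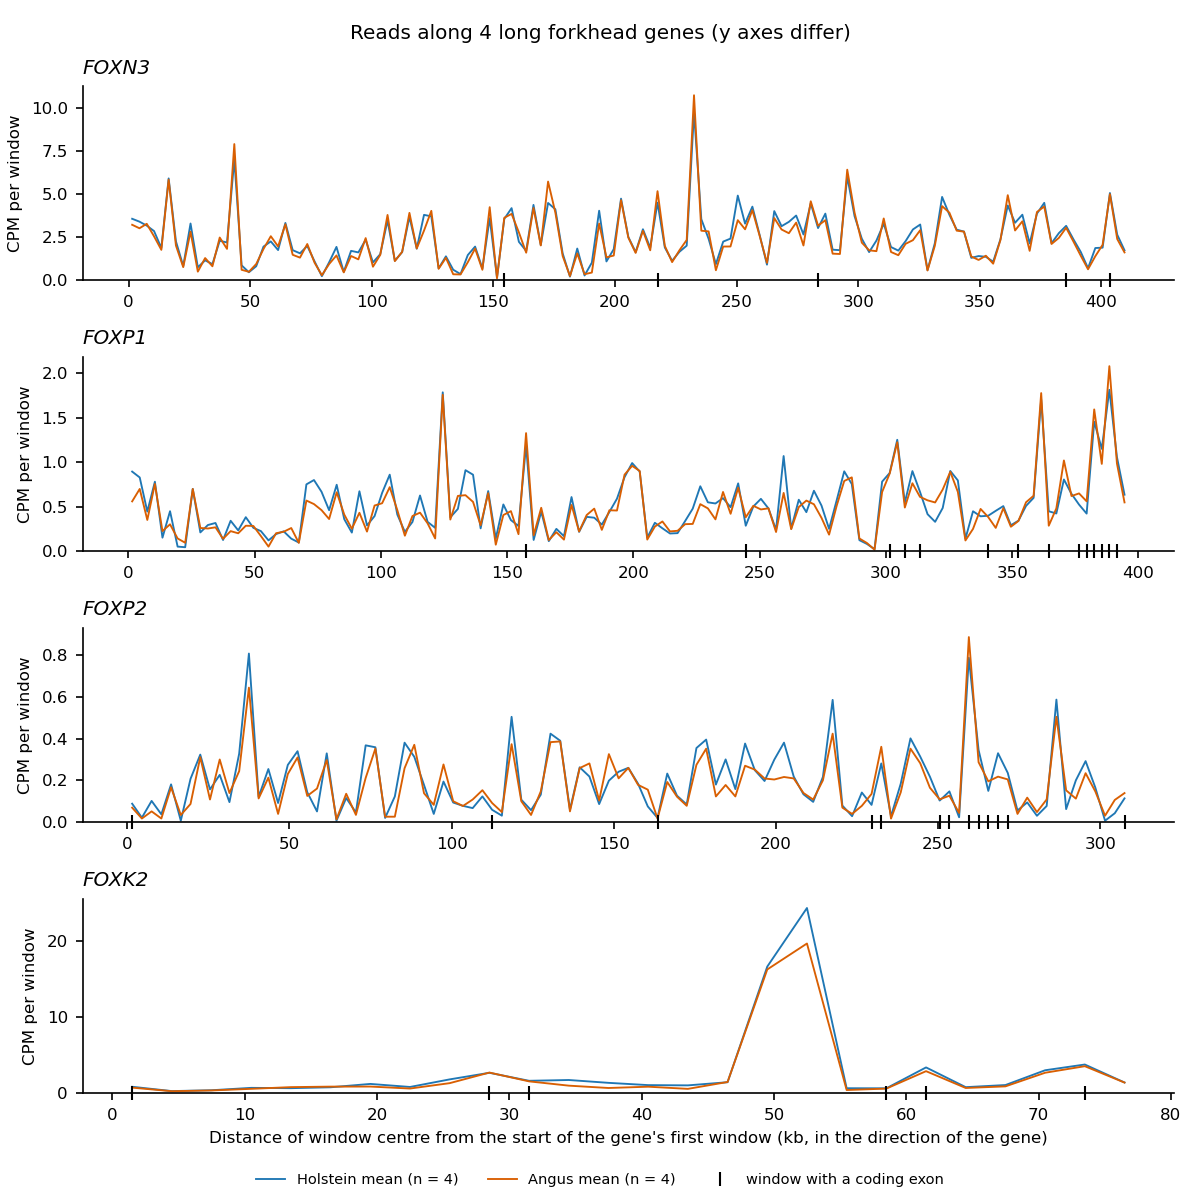
Lines are the mean CPM per 3Kb window of 4 Holstein and 4 Angus libraries along FOXN3, FOXP1, FOXP2 and FOXK2, against the distance in kb from the start of the first window in the direction of the gene, with ticks at windows that hold a coding exon. The lines of the breeds follow the same peaks, and in FOXK2 windows 17 and 18 rise above the remainder of the gene.

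FOXK2 differed from its relative FOXK1 in how its reads were spread. Windows 17 and 18 of its 26 (chr19:50671875-50674874 and chr19:50668875-50671874), between windows with coding exons 7 and 9, had 16.4 ± 3.45 and 22 ± 5.10 CPM (SD, n = 8). Window 18 had 27, 22.6, 24.5 and 23.2 CPM in Holstein 1 to 4 and 19.2, 17.4, 13.4 and 28.7 CPM in Angus 1 to 4, and the breeds overlapped. Both windows together held 7923 of the 14231 reads in the 25 other windows (55.7%, and 50.8 to 64.5% per library). Without them the mean of the other windows fell from 2.72 ± 0.499 to 1.29 ± 0.280 CPM (SD, n = 8). As a measure of stacking, the highest depth in each library was summed over the 8 libraries and divided by the summed read count. This ratio is no share of reads, since the highest depth can lie on different bases and can include reads counted elsewhere. It was 44.4% in window 17 and 26.5% in window 18. Among autosomal windows with 1000 to 10000 reads the median was 12.6% and the 95th percentile 57.0% on the same ratio. In FOXK1 the reads spread more evenly, with a median of 3.09 CPM, and its last windows, 23 and 24, were the highest at 8.63 ± 1.61 and 9.81 ± 2.35 CPM (SD, n = 8), both with coding exons.

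Windows with a coding exon were set beside windows without one in the 9 genes that had at least 3 of each among their other windows. Coding windows were higher in 8 of 8 libraries in 6 genes (FOXJ3, FOXK1, FOXN3, FOXN4, FOXP1 and FOXP4), and lower in 8 of 8 in FOXK2. Over all 7056 such genes the shares were 50.4% and 19.6%. FOXP4 had 2.38 ± 0.522 CPM in 7 coding and 1.13 ± 0.262 CPM in 4 non-coding windows (SD, n = 8). FOXN3 had 3.95 ± 0.928 CPM in 5 coding and 2.36 ± 0.475 CPM in 131 non-coding windows, and FOXK1 5.40 ± 1.09 against 2.98 ± 0.697 CPM (SD, n = 8). In FOXK2 the order rested on windows 17 and 18: its coding windows had 2.33 ± 0.448 CPM against 2.82 ± 0.525 CPM in 20 non-coding windows, and against 1.00 ± 0.246 CPM in the 18 left without them (SD, n = 8), where coding windows were higher in 8 of 8 libraries. Leaving out these windows was chosen after their values were seen. FOXN2 and FOXP2 did not show the same order in all libraries.

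FOXF1, FOXC2 and FOXL1 lie within 60 kb of chromosome 18, in 20 windows from chr18:12377798-12380797 onwards, with MTHFSD between FOXF1 and FOXC2. FOXF1 had 0.964 CPM in its first and 3.15 ± 0.888 CPM in its last window, with coding exon 2. FOXC2 and FOXL1 were lower: FOXC2 had 0.253, 0.433, 0.416 and 0.422 CPM in Holstein 1 to 4 and 0.314, 0.487, 0.269 and 0.268 CPM in Angus 1 to 4, and the windows of FOXL1 0.372 and 0.549 ± 0.200 CPM (SD, n = 8). The windows on either side of FOXC2 had 0.202 and 1.35 CPM. The 15 windows between the forkhead genes reached 5.01 CPM in MTHFSD, and their mean of 1.54 ± 0.284 CPM was above that of the 5 forkhead windows (1.08 ± 0.205 CPM) in 8 of 8 libraries. The pair FOXD2 and FOXE3 on chromosome 3 showed the opposite order. There the 4 forkhead windows had 0.678 ± 0.196 CPM and the 5 windows between them 0.455 ± 0.152 CPM (SD, n = 8), with the forkhead windows higher in 8 of 8 libraries.

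**Figure D3:**
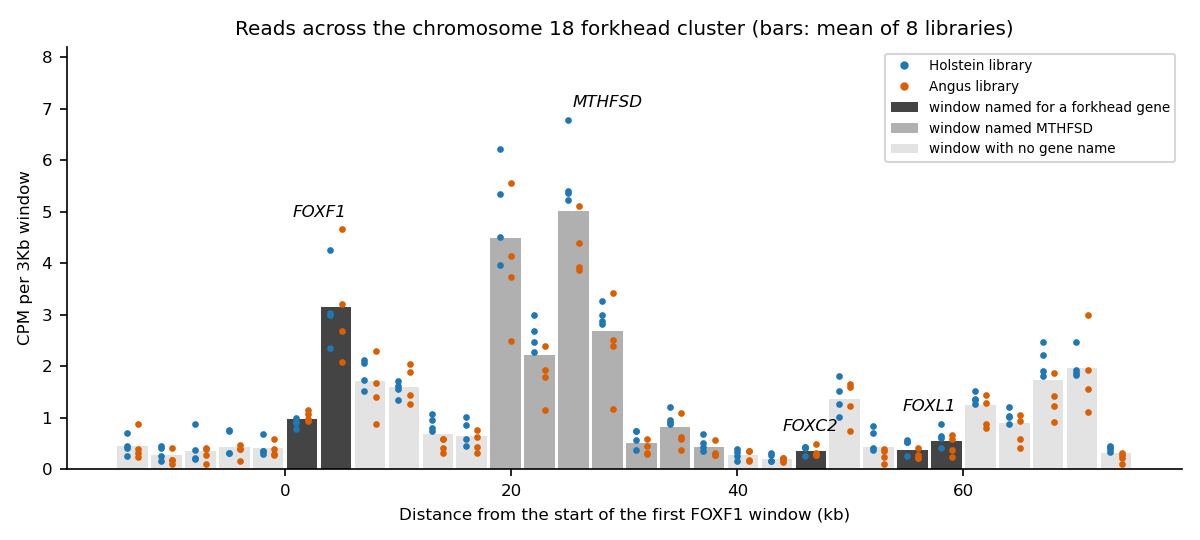
Bars are the mean CPM of 8 libraries in each 3Kb window across the FOXF1, FOXC2 and FOXL1 cluster, against the distance in kb from the start of the first FOXF1 window, and points are the Holstein and Angus libraries. FOXC2 and FOXL1 windows lie between 0.358 and 0.549 CPM, below the last FOXF1 window at 3.15 CPM.

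Between the breeds, no forkhead window passed the thresholds for a differentially methylated region (DMR), FDR < 0.1 and FC ≥ 2, in edgeR's likelihood-ratio test. Of the 613 windows, 217 in 21 genes reached 1 CPM in 4 or more libraries, 116 of them in FOXN3, and were tested with 115360 windows of the genome, of which 0.231% were called. Forkhead windows are all autosomal, and 102 of the 110561 autosomal windows tested were called. Before adjustment 11 of the 217 had p under 0.05 (5.07%), against 4.94% of all windows tested, and edgeR's quasi-likelihood test and DESeq2 also called 0, with 11 and 8 windows under 0.05. The log2 fold change of Holstein over Angus lay between -0.55 and 0.70 in all 217, with a median standard error of 0.18. No tested forkhead window differed by 2-fold or more in the estimate. By sign, 96 were higher in Holstein and 121 in Angus with TMM scaling, and 160 were higher in Holstein with total counts only, a scaling that moves the median log2 fold change of all windows to 0.14. Of all windows tested, 49.6% were higher in Holstein with TMM and 77.5% with total counts only. With each library left out in turn, 0 forkhead windows that passed the filter were called.

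The tested window with the smallest p was window 7 of FOXP4 (chr23:15407993-15410992, coding exon 3). It had 1.92, 2.03, 1.55 and 2.62 CPM in Holstein 1 to 4 and 1.40, 1.46, 0.772 and 0.803 CPM in Angus 1 to 4, so that all Holstein libraries lay above all Angus libraries. The log2 fold change was 0.70 (SE 0.21, FDR = 0.191 in edgeR), which is below the FC threshold. The next windows higher in Holstein were FOXN3 window 84, with a log2 fold change of 0.38 (SE 0.15), and FOXK1 window 18, with 0.44 (SE 0.20). Those higher in Angus were FOXN3 window 54 (-0.40, SE 0.16), FOXN3 window 58 (-0.52, SE 0.21) and FOXR1 window 2 (-0.55, SE 0.23). The edgeR FDR of these 5 windows lay between 0.723 and 0.881, and the breeds overlapped in each of them.

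First windows were tested for all named autosomal genes with at least 3 reads in at least 4 libraries, which held 32 of the 34 members. The exceptions were FOXN2 and FOXP2. None of the 32 was called by edgeR's likelihood-ratio test, against 0.204% of 22537 first windows, and the quasi-likelihood test and DESeq2 also called 0. Before adjustment 4 of the 32 had p under 0.05 in the likelihood-ratio test (12.5%), against 4.94% of all first windows tested. The quasi-likelihood test gave 4, against 4.38% of all, and DESeq2 gave 1, against 1.8% of all. FOXL2, the ovarian granulosa cell factor, had 0.0506, 0.346, 0.378 and 0.479 CPM in Holstein 1 to 4 and 0.454, 0.869, 0.504 and 0.535 CPM in Angus 1 to 4. Only Holstein 4 reached into the Angus range. The log2 fold change of FOXL2 was -1.02 (SE 0.34, FDR = 0.399 in edgeR). FOXA1 had 3, 8, 6 and 14 reads across Holstein 1 to 4, with 5, 4, 2 and 1 across Angus 1 to 4, a log2 fold change of 1.15 (SE 0.51, FDR = 0.912 in edgeR). FOXE1 and FOXD2 were higher in the Angus mean, with log2 fold changes of -0.58 (SE 0.25) and -0.69 (SE 0.30). In the Holstein direction FOXP1 and FOXL1 followed FOXA1, with 0.50 (SE 0.28) and 0.56 (SE 0.37). With a median standard error of 0.30 over these 32 windows, a 2-fold difference is near the limit of what 4 libraries per breed can show.

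The reads summed over the other windows gave the tightest comparison. None of the 22 forkhead gene bodies that reached 1 CPM in 4 or more libraries was called, against 0.0378% of 15881 gene bodies, and 0 of the 22 had p under 0.05 in edgeR's likelihood-ratio test, its quasi-likelihood test or DESeq2, against 1.78, 1.5 and 1.18% of all gene bodies. At these shares a count of 0 among 22 says nothing particular about the members. By sign, 4 of the 22 were higher in Holstein with TMM scaling and 19 with total counts only, a scaling that moves the median of all gene bodies from -0.02 to 0.15. Of all gene bodies tested, 41.6% were higher in Holstein with TMM and 90.6% with total counts only. The log2 fold changes lay between -0.43 and 0.08. The smallest p values among bodies higher in Angus were those of FOXD2 at -0.43 (95% interval -0.91 to 0.04), FOXA2 at -0.38 (-0.95 to 0.19) and FOXR1 at -0.15 (-0.45 to 0.14). FOXI3 lay at -0.22 (-0.66 to 0.21). In the other direction FOXK2 had 0.08 (-0.22 to 0.38), FOXN1 0.04 (-0.28 to 0.35) and FOXJ2 0.04 (-0.29 to 0.37). For FOXO1 the interval was -0.24 to 0.16, for FOXO3 -0.26 to 0.15, for FOXP1 -0.31 to 0.15 and for FOXM1 -0.46 to 0.20, so that a 2-fold difference lies outside each of them.

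**Figure D4:**
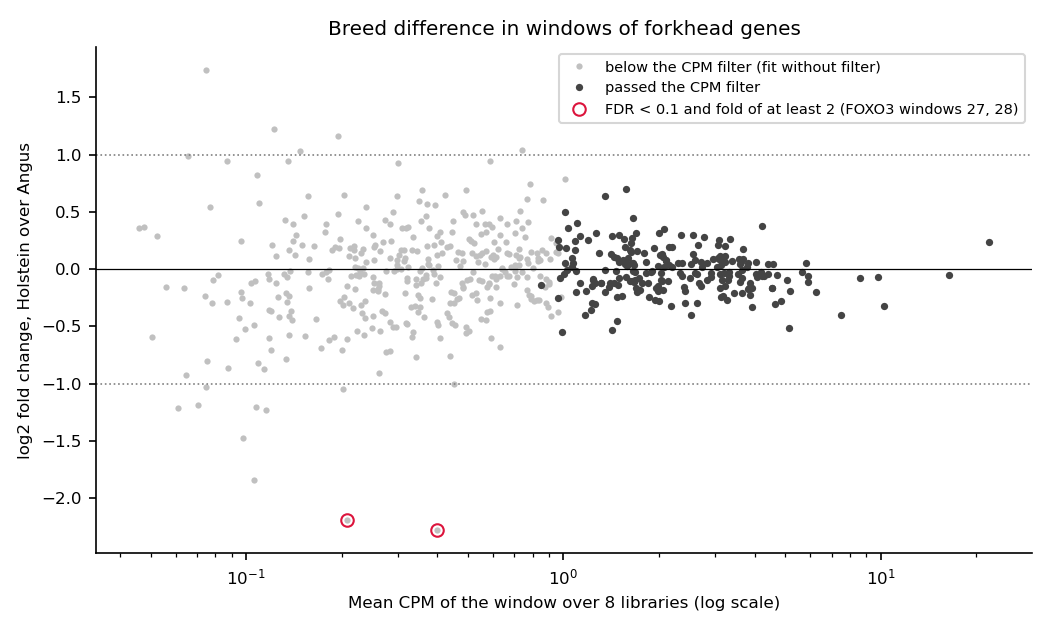
Each point is a forkhead window, with its mean CPM over 8 libraries on a log axis and the log2 fold change of Holstein over Angus on the vertical axis. Dark points passed the CPM filter and lie between -0.55 and 0.70, grey points come from the fit without a CPM filter, and red circles mark FOXO3 windows 27 and 28 at -2.19 and -2.28.

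When the CPM filter was replaced by a minimum of 10 reads over the 8 libraries, 597 forkhead windows were tested, and 2 were called. Of all 856519 windows, 0.107% were called in that fit, and 0.0792% were called as higher in Angus. On the autosomes, where all forkhead windows lie, 557 of 807833 windows were called. The quasi-likelihood test called 0.06% of all windows and also 2 forkhead windows. Both forkhead calls were adjacent windows of FOXO3, 27 and 28 of 38 (chr9:42038851-42041850 and chr9:42035851-42038850, − strand). They carry no coding exon and lie between coding exon 1 in window 1 and coding exon 2 in window 37. Window 28 held 2, 0, 2 and 13 reads across Holstein 1 to 4, with 28, 24, 20 and 3 across Angus 1 to 4. Window 27 held 2, 0, 0 and 7 reads across Holstein 1 to 4, with 16, 8, 11 and 3 across Angus 1 to 4. In both windows Angus 1 to 3 lay above all Holstein libraries and Angus 4 lay below Holstein 4, so the breeds overlapped.

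Window 28 averaged 0.136 ± 0.159 CPM over the Holstein and 0.661 ± 0.356 CPM over the Angus libraries (SD, n = 4 per breed), a log2 fold change of -2.28 (SE 0.37, FDR = 5.64e-06 in edgeR's likelihood-ratio test and 2.45e-05 in its quasi-likelihood test). Window 27 had 0.0745 ± 0.0946 and 0.342 ± 0.168 CPM (SD, n = 4 per breed), a log2 fold change of -2.19 (SE 0.51, FDR = 0.0245 and 0.0642 in the same edgeR tests). An exact two-sided permutation test of the CPM gave p = 0.0571 for each window, where 4 against 4 cannot go below 0.0286. Window 28 was called without each library in turn, with FDR values up to 0.00411 in edgeR. Window 27 was not called without Holstein 2, Holstein 3, Angus 1 or Angus 3, with edgeR FDR values of 0.316, 0.383, 0.204 and 0.304. The windows next to the pair did not show the difference: window 26 averaged 0.918 ± 0.373 CPM over the Holstein and 0.847 ± 0.0694 CPM over the Angus libraries, and window 29 had 0.329 ± 0.0606 and 0.267 ± 0.188 CPM (SD, n = 4 per breed). Both called windows stayed under 1 CPM in all 8 libraries and so did not pass the CPM filter. The left-out libraries and the quasi-likelihood test without the filter were added after these calls were seen.

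**Figure D5:**
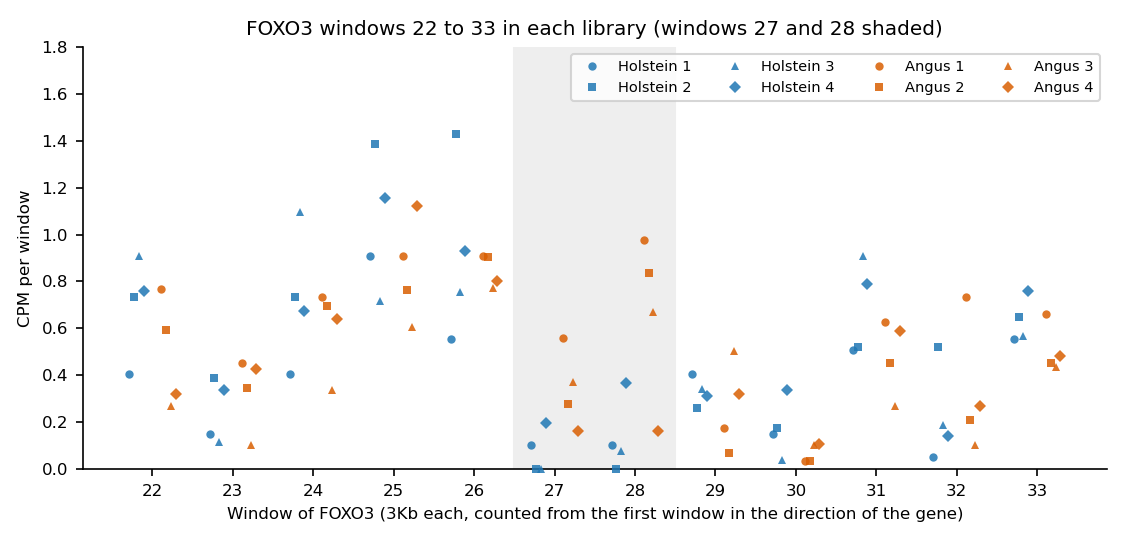
Points are the CPM of each library in FOXO3 windows 22 to 33, counted in the direction of the gene, with blue for Holstein, orange for Angus and a marker shape for each animal number. In the shaded windows 27 and 28 Angus 1 to 3 lie above all Holstein libraries, Angus 4 is at 0.161 CPM, and in the windows on either side the breeds mix.

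Overlap was also read window by window. All libraries of a breed lay above all of the other in 4 of 613 forkhead windows (0.653%), against 1.23% of all autosomal windows. They were the FOXK1 first window, FOXN3 window 64, FOXO3 window 3 and FOXP4 window 7, each higher in Holstein. Overlap was read on CPM from total counts, so the shared direction depends on the scaling. With total counts only, 77.5% of all windows tested for breed were higher in Holstein, against 49.6% with TMM. The FOXK1 first window (chr25:39828101-39831100, coding exon 2) had 3.49, 3.07, 3.22 and 2.93 CPM in Holstein 1 to 4 and 2.02, 2.57, 2.18 and 2.62 CPM in Angus 1 to 4. Its log2 fold change among first windows was 0.30 (SE 0.24, 95% interval -0.17 to 0.77). FOXN3 window 64 averaged 1.03 ± 0.361 CPM over the Holstein and 0.452 ± 0.162 CPM over the Angus libraries (SD, n = 4 per breed), a log2 fold change of 1.04 (SE 0.28, FDR = 0.173 in edgeR without the CPM filter). Without Holstein 2 this FOXN3 window was called in that fit, higher in Holstein, with a log2 fold change of 1.22 (SE 0.30, FDR = 0.0579 in edgeR).

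Genes around the forkhead factors were read from fixed lists. Of the 24 genes upstream of FOXO (insulin receptor, PI3K, AKT, 14-3-3 and deacetylase genes), 19 first windows, 171 windows and 21 gene bodies were tested, and 1 first window was called. Over all features 0.204% of first windows, 0.231% of windows and 0.0378% of gene bodies were called. The called first window was 1 picked out by its result. This first window belonged to SGK1, a kinase that phosphorylates FOXO3, at chr9:73309851-73312850. SGK1 had 0.303, 0.260, 0.341 and 0.253 CPM in Holstein 1 to 4 and 0.838, 0.834, 0.437 and 1.87 CPM in Angus 1 to 4, so that all Angus libraries lay above all Holstein libraries. The log2 fold change of SGK1 was -1.87 (SE 0.34, FDR = 6.99e-05 in edgeR's likelihood-ratio test), and it was called without each library in turn, with values from -2.03 to -1.47. The window reached 1 CPM only in Angus 4. It thus did not pass the CPM filter for windows and was tested only under the first-window filter of 3 reads. None was called among 18 FOXO targets, 17 FOXM1 targets and partners, 10 hedgehog genes and 8 nodal and FOXH1 partners, nor among HOX, SOX and PAX genes, at any of the 3 levels. First windows tested were 17, 15, 9 and 6 in these lists, and 31, 11 and 9 for HOX, SOX and PAX. At the shares over all features, counts of 0 say nothing particular about these sets. Median first windows of the 5 fixed lists lay between 0.327 and 0.433 CPM, against 0.544 CPM for the forkhead genes. AKT1, which phosphorylates FOXO factors, had the highest first window of its list at 5.94 CPM. Within genes, the first window was lower than the other windows in 12 of 23 FOXO upstream genes, 8 of 17 FOXO targets, 8 of 16 FOXM1 genes, 7 of 10 hedgehog genes and 6 of 8 nodal genes by the exact sign-flip permutation test, against 50.5% of all genes. It was higher in 4, 1, 0, 2 and 1 genes of these lists, against 20.7% of all genes.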

How the data were processed

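MIRA-Seq libraries of 4 Holstein and 4 Angus cultures were grouped by the breed in their titles. Per the labels and the paper's methods, the authors filtered reads, aligned them to UMD v3.1 with NextGENe 2.3.4 and deposited raw read counts per 3Kb window without normalization (CASAVA 1.7 is named in the submitters' processing notes). The deposited files also give minimum, maximum and average coverage per window, a signal not scaled for depth, of which only the maximum was used. How duplicate and multiply matching reads were treated is not given in the sources used here, and no input library was used.

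CPM used the total over all windows as library size. Breeds were compared with edgeR 4.0.16 in R 4.3.3 (TMM, estimateDisp, generalized linear model likelihood-ratio test, Benjamini-Hochberg adjustment over all features tested) on windows and gene bodies that reached 1 CPM in 4 or more libraries and on first windows that reached 3 reads in 4 or more. DMR needed FDR < 0.1 and FC ≥ 2. The quasi-likelihood test, DESeq2 1.42.0, other scalings, filters and thresholds, the replicate block and left-out libraries were alternatives. First and other windows were compared by exact sign-flip tests in Python 3.11.15. The edgeR tests were tried on simulated counts of windows that passed the CPM filter, with the same dispersion for all windows. The sign-flip test was tried on simulated differences. Fits without the CPM filter and fits of first windows were not simulated. The edgeR standard errors were not given by the fit. Each is the size of the log2 fold change divided by the square root of its test statistic. Intervals are approximate 95% intervals of the log2 fold change built from these standard errors. Read floors cover counting error only, because copies made by PCR are not independent molecules. The members and lists were chosen with earlier results of these data known. Named genes were those called, the 5 highest and 3 lowest levels, the 3 smallest p in each direction, 2 gene clusters, 13 genes with roles in skin, fibroblasts, cell cycle or immunity, and up to 5 genes with a higher first window in all 8 libraries. FOXN3 window 14, SGK1 and the 4 windows without overlap between breeds outside this rule were named after their values were seen. Gene symbols were matched to RefSeq (ARS-UCD2.0) by name, 34 of 34. No genome sequence of UMD v3.1 was used here, so promoter sequence features were not computed and no sequences are shown. No pair of libraries within a breed agreed within sampling noise (chi-square per window of 3.23 or more). A member that is counted in the totals is not reported here by name.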

Additional observations from a re-analysis of the deposited data

Results flagged for a closer look

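In groups of 4 libraries, 1 library was set against the rest of its breed by Dixon's criterion. Chance gives about 1 in 20 for independent groups. The groups here reuse the same 8 libraries over genes, so no excess over that share can be read from the count. In 128 groups, 10 stood apart. Holstein 1 was the lowest of the Holstein libraries in 7 of them: the mean over forkhead first windows (0.707 CPM), the first windows of FOXA2 (0.0506 CPM), FOXA3 (0.101 CPM), FOXC2 (0.253 CPM), FOXJ1 (2.17 CPM) and FOXL1 (0.253 CPM), and the other window of FOXD3 (0.152 CPM). Holstein 1 had the second highest share of reads in few windows, and its part in these values was not tested. The flags were read on CPM from total counts. With TMM scaling the mean over forkhead first windows was 0.865, 0.923, 0.950 and 0.889 CPM in Holstein 1 to 4. Holstein 2 was the lowest in the first window of FOXK2 (0.519 CPM) and the highest in that of FOXP2 (0.303 CPM, 7 reads). Angus 3, the library with the highest such share, was the lowest of the Angus libraries in the other windows of FOXO1 (0.704 CPM).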

How the results depend on the processing

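The forkhead calls between breeds stayed at 0 for first windows and gene bodies under all alternatives. For windows they stayed at 0 under all alternatives with the CPM filter. Without that filter, 2 windows were called by the likelihood-ratio test and 2 by the quasi-likelihood test, and 1 to 2 with a library left out. FOXO3 window 28 was called in each of these fits, FOXO3 window 27 in 4 of 8, and FOXN3 window 64, higher in Holstein, without Holstein 2. Over the whole genome, where 267 windows were called, the count was 425 with no fold minimum, 141 with the quasi-likelihood test, 141 with DESeq2, 531 without Holstein 1 and Angus 3, 153 with autosomes only and 163 with a CPM of 1 in all 8 libraries. It was 145 to 564 with a library left out, the lowest without Holstein 4 and the highest without Holstein 1, and 176 without Holstein 3. Without the CPM filter it was 917, or 514 with the quasi-likelihood test and 460 to 1273 with a library left out (1273, 738, 577 and 460 without Holstein 1 to 4, and 1016, 843, 628 and 778 without Angus 1 to 4). The causes were not tested. Mean first-window levels moved to 1.15 CPM with autosomal library sizes and 0.511 with medians over genes, and mean other-window levels to 1.56 and 0.901 CPM. With total counts only, 19 of 22 forkhead gene bodies were higher in Holstein, against 4 with TMM. Over all gene bodies tested the shares were 90.6 and 41.6%. Named gene bodies near 0 changed sign. On the log2 scale FOXR1 was at 0.0174 with total counts, FOXK2 at -0.0551 without Holstein 1 and Angus 3 and from -0.03 to 0.19 with a library left out, FOXN1 from -0.0207 to 0.142 and FOXJ2 from -0.0402 to 0.149.

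Animal numbers gave no sign of a pairing: deviations of same-numbered libraries correlated at -0.157 to 0.139 in 4 pairs, and those of different numbers at -0.231 to 0.283 in 12 pairs. With the replicate block 346 windows of the genome and 0 forkhead windows were called, and without the CPM filter 626 windows and 1 forkhead window, FOXO3 window 28. With the block, FOXP4 window 7 had an FDR of 0.0833 in edgeR but stayed below a 2-fold difference. The planned description of promoter sequence features was not run, because no sequence of the build was used here.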

Other observations

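Forkhead genes outside chromosomes 1 to 29 were left out of the counts. They were 3 genes of the X chromosome with 6 windows. FOXP3, the factor of regulatory T cells, had 0.927 ± 0.193 CPM (SD, n = 8 libraries, 0.588 to 1.23) over 2 windows, and FOXO4, a FOXO factor, had 0.595 ± 0.171 CPM (0.302 to 0.765) over 3 windows. FOXR2 had 0.264 ± 0.136 CPM (0.101 to 0.519) in its only window.

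The ratio of summed highest depth to summed read count, which is no share of reads and can pass 100%, was 79.7% in window 14 of FOXN3 (419 reads). The 95th percentile of autosomal windows with 100 to 1000 reads was 38.8%, and 8 of 333 forkhead windows in this class lay above it.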
